A study of Homo sapiens with 27 samples.

Results

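The 7 libraries described here were selected on a measured value, the share of their counts in genes whose symbol is RPL or RPS followed by a digit. Each held more than 14% of its counts in these genes, out of 27 libraries in all, and the other 20 held less. The pattern takes in 93 genes, of which 78 encode proteins of the cytosolic ribosome. Another 9 encode ribosomal S6 kinases and 6 are related or overlapping genes, and over the 78 genes alone the same 7 libraries lie above 14%. The libraries are QuantSeq 3′ messenger RNA libraries of teloHAEC, a line of human aortic endothelial cells immortalised with telomerase. The RNA was collected 2 days after Cas9 ribonucleoprotein had been electroporated into 150000 cells per replicate.

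All groups received S.p. HiFi Cas9 Nuclease V3 complexed with a guide, and all carry the same immortalised background. Set A holds 4 libraries of cells treated with guides flanking a candidate enhancer of SMAD3, 4 with a guide against HPRT and 4 with a non-targeting negative control guide. Set B holds 4 libraries with guides flanking a candidate enhancer of LDAH (earlier C2orf43), 4 with the HPRT guide and 7 negative controls. Members came from 5 of the 6 groups. They were SMAD3 deletion replicate 4 and HPRT-targeted replicate 3 of set A, and LDAH deletion replicate 4, HPRT-targeted replicates 2 and 4 and negative control replicates 6 and 7 of set B. The negative control of set A had none. The labels name no cloning step, and they do not say that replicates were separate cultures beyond their electroporations, so each p reflects only how these samples vary, which may be technical.

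Ribosomal proteins are small, very abundant proteins, and their messenger RNAs are among the shortest and most plentiful of a growing cell. A 3′ library makes about one tag per messenger RNA, primed from the poly(A) tail, so its counts do not scale with transcript length by design. In bulk RNA, fewer cells expressing a gene and less RNA per cell cannot be told apart.

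The share that defined the members was 15.7% in SMAD3 deletion replicate 4 and 14.6% in HPRT-targeted replicate 3 of set A. In set B it was 16.5% in LDAH deletion replicate 4, 14.3% and 16.5% in HPRT-targeted replicates 2 and 4, and 14.6% and 15.03% in negative control replicates 6 and 7. For the other libraries of set A it ranged from 11.3% to 13.8%, and for those of set B from 8.83% to 10.8%. The threshold thus lies in a wide gap in set B and in a narrow one in set A. Just inside it was HPRT-targeted replicate 2 of set B, and just outside it HPRT-targeted replicate 1 of set A at 13.8%. These 2 libraries, of different sets, were also unlike in their long genes. Genes of the longest quintile of coding length, described further on, took 8.20% of the counts of the first and 12.01% of the second.

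Because the members were chosen on the counts themselves, each difference between them and the other 20 libraries is given as a description, with no test. Total counts were 3430481 to 6391936 in the members and 3841246 to 7752413 in the others. The differences below are fitted log2 differences in edgeR with the treatment group as a block, ± the standard error. A gene is called higher (or lower) in all 7 when every member lies above (or below) every other library of its own group. Levels are counts scaled by TMM factors and library totals (CPM). They compare a gene between libraries and not genes with each other.

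Ribosomal protein genes, chosen by the rule, were higher in nearly all cases, but the much larger differences were those of other genes that were lower. Of 12055 genes tested, 1069 (8.87%) were lower in all 7 with a log2 difference of at most -1, and 28 (0.232%) were higher in all 7 with one of at least 1. At any size the numbers were 1482 lower (12.3%) and 767 higher (6.36%). The lower side therefore held the large differences, and the higher side consisted of many small ones. All levels are relative to the scaled library total, so a smaller share of some genes raises that of others. Whether the genes called higher had more RNA per cell was not tested. The number of higher genes was 72 without HPRT-targeted replicate 3 of set A, 48 without negative control replicate 6 of set B, 47 without HPRT-targeted replicate 2 of set B and 44 without HPRT-targeted replicate 3 of set B. The count of genes lower in all 7 libraries was between 1047 and 1253 when any 1 library was left out. Leaving 1 out can loosen the rule for both directions, so these counts can rise for that reason alone.

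The coding sequences shown next represent both ends of this contrast, taken from GENCODE 29 transcripts (GRCh38). RPL39, the ribosomal protein gene with the shortest coding sequence among the 4 with the largest differences, is shown whole. It is 153 bases without its stop codon, or 51 codons in 3 exons between 119786687 and 119791576 on the minus strand of chromosome X. The other 4 are windows around the longest run of A, in capitals, within the coding sequence of genes among the 12 with the largest lower values (lower in all 7 libraries, a mean of 10 CPM or more), leaving out the multigene family member NPIPB4. They are the 2 with the longest runs and the 2 with the shortest. Their full coding sequences are 6729, 9768, 5262 and 3027 bases long, too long to print. Runs of A are marked because oligo(dT) primers can pair with such runs as well as with the tail.
RPL39: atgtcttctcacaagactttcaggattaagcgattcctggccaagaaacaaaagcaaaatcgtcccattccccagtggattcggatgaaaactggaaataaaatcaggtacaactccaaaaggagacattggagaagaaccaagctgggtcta
GOLGA4 (chr3:37325952-37326009, plus strand, exon 15): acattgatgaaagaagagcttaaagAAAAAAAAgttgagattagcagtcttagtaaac
MKI67 (chr10:128115685-128115742, minus strand, exon 7): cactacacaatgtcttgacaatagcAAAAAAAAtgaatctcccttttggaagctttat
COL18A1 (chr21:45476351-45476390, plus strand, exon 5): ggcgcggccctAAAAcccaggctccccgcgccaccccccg
MAN2B2 (chr4:6610897-6610950, plus strand, exon 14): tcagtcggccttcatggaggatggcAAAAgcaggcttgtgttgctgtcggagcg

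GOLGA4 and MKI67 hold runs of 8 A and COL18A1 and MAN2B2 none longer than 4, and all 4 were among the 12 genes with the largest lower values. All 4 have coding sequences in the longest quintile, as defined next.

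The difference between the members and the other libraries followed coding length. Among 8324 protein-coding genes with a mean of at least 10 CPM, the median log2 difference was 0.37 in the shortest quintile (72 to 723 bases) and 0.24 in the next. It was 0.07 in the third, -0.15 in the fourth and -0.73 in the longest quintile (2562 to 26391 bases). The share of genes lower in all 7 by at least 1 ran from 1.13% over 1.81%, 4.92% and 11.6% to 36.7%. Conversely, 21.3% of the shortest and 0.480% of the longest were higher in all 7 at any size. Both sets showed the order. From the shortest to the longest quintile the set A medians went from 0.26 to -0.53, and those of set B from 0.43 to -0.81.

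**Figure D1:**
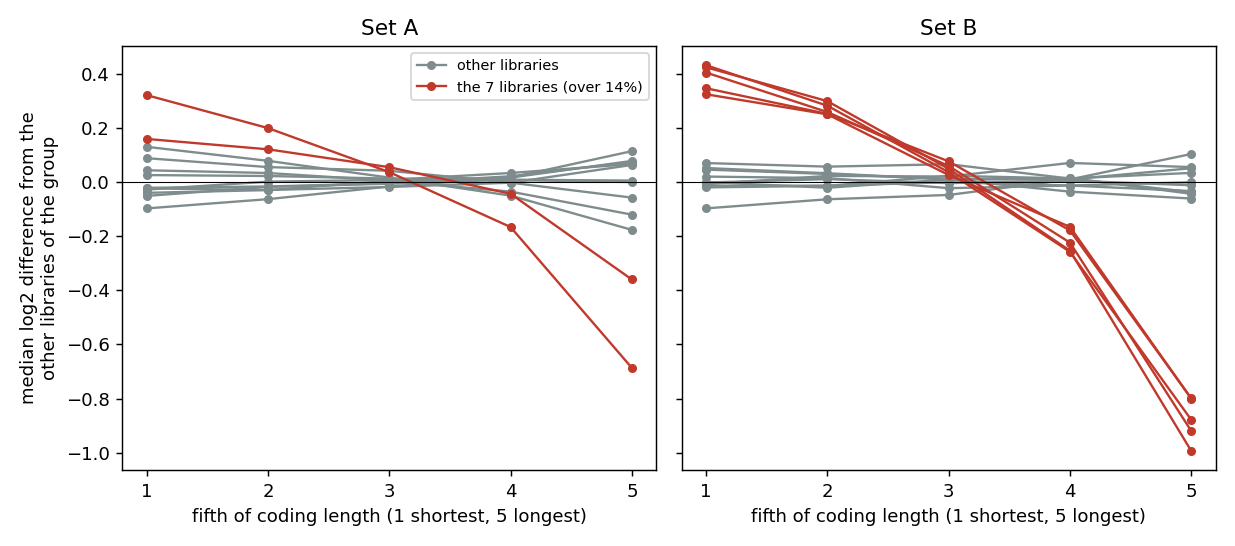
Median log2 difference (y axis) of each library from the other libraries of its group that are not among the 7, by quintile of coding length (x axis, 1 shortest to 5 longest), for set A (left) and set B (right). Red lines are the 7 libraries and grey lines the other 20. In the longest quintile the members lie between -0.99 and -0.36 and the others between -0.18 and 0.11.

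Library by library, the gap between the medians of the longest and the shortest quintile was -1.01 in SMAD3 deletion replicate 4 and -0.52 in HPRT-targeted replicate 3 of set A. In set B it was -1.31 in LDAH deletion replicate 4, -1.12 and -1.32 in HPRT-targeted replicates 2 and 4, and -1.15 and -1.42 in negative control replicates 6 and 7. HPRT-targeted replicate 3 of set A thus had the smallest gap of the members. Among the 20 others the gap ranged from -0.31 to 0.21, with SMAD3 deletion replicate 1 at the low end. Members and others did not overlap. As a share of all counts, genes of the longest quintile held 7.22% to 9.15% in the members. In the other libraries of set A they held 12.01% to 15.4%, and 15.05% to 17.9% in those of set B. Genes of the shortest quintile held 39.2% to 42.2% in the members, and 28.9% to 37.3% in the others. That quintile includes many of the ribosomal protein genes that chose the members, so its share is partly the selecting value. Their median coding length was 480 bases in the large subunit and 456 in the small. The share without them was not computed.

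**Figure D2:**
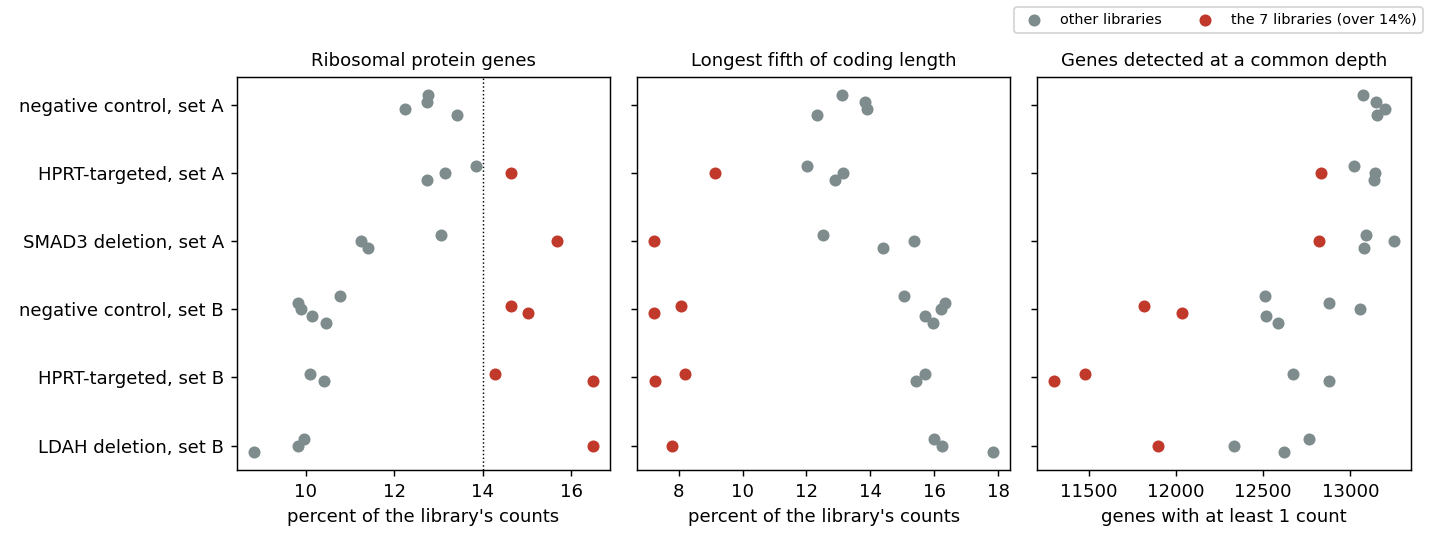
Each point is 1 of the 27 libraries, in rows by group, with the 7 libraries in red and the others in grey. The x axes give the percent of counts in ribosomal protein genes (left, with the 14% threshold dotted), the percent of counts in the longest quintile of coding length (centre) and the genes with at least 1 count after thinning each library to 3430481 counts (right). The members lie apart from the others of their group in all 3 panels.

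Other properties that were compared went with the difference less. Total transcript length was not among them. Spearman's rho across the 8324 genes, which share libraries and are not independent replicates, was -0.56 for coding length, -0.24 for the longest run of A in the coding sequence, -0.18 for the length of the 3′ untranslated region and -0.10 for the GC content of the coding sequence. Within the longest quintile, 249 of 1665 genes held a run of at least 8 A and had a median of -0.80, against -0.72 for the 1416 without one. The quintiles of 3′ untranslated length differed little there, at -0.66 for the shortest and -0.74 for the longest. GC content went further with the difference among long genes. Those in the lowest quintile of GC content had a median of -0.40 and those in the highest -1.18, while among the shortest coding sequences the 2 medians were 0.37 and 0.28. These properties were chosen with the values in view and their part in the result was not tested.

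Genes for long proteins of the spindle, the Golgi and the extracellular matrix were among those with the largest lower values. CENPE (ENSG00000138778; chromosome 4, 103105806 to 103198409 on GRCh38) encodes the kinetochore motor that carries chromosomes to the spindle equator, in a coding sequence of 8103 bases. CENPE stood at 0.191 to 6.52 CPM (median 2.67) in the 5 members of set B, against 100.3 to 271 CPM (median 158) in the 10 other libraries. The 2 members of set A were at 7.09 and 8.98 CPM and its 10 other libraries at 89.2 to 206 CPM (median 122). Every member lay below every other library of its set, and the log2 difference was -5.04 ± 0.31. MKI67 (ENSG00000148773; chromosome 10, 128096659 to 128126385) encodes the Ki-67 protein that coats mitotic chromosomes. MKI67 stood at 2.46 to 13.1 CPM (median 4.96) in the 5 members of set B, against 171 to 518 CPM (median 231) in the 10 other libraries. In set A the 2 members were at 11.4 and 13.5 CPM, against 70.4 to 327 CPM (median 161) in the 10 others. The difference was -4.61 ± 0.36. CENPF, another kinetochore protein gene, had -4.41 ± 0.26, and GOLGA4, which encodes a coiled-coil tether of the trans-Golgi, -4.95 ± 0.28.

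Proliferation genes as a group were not lower, however. Of 46 members 22 were higher and 24 lower, with a median of -0.04, beside -0.02 over all 12055 genes. The 24 with a coding sequence up to 1365 bases, the median length, had a median of 0.24 and the 22 longer ones -0.25. Over all genes tested these 2 medians were 0.23 and -0.31. The 3 members with the largest absolute differences were the long genes CENPE, MKI67 and CENPF.

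Basement membrane and matrix genes encode the long collagens, laminins and glycoproteins on which endothelium sits. Of 42 in the fit, 38 were lower, 31 of them in all 7 libraries at any size (12.3% of all genes were), and the median was -1.84. COL4A2 (ENSG00000134871; chromosome 13, 110305812 to 110513209) encodes a chain of basement membrane collagen. COL4A2 stood at 4.24 to 7.39 CPM (median 6.67) in the 5 members of set B, against 90.7 to 161 CPM (median 142) in the 10 other libraries. The 2 members of set A were at 3.36 and 6.65 CPM and its 10 other libraries at 46.3 to 152 CPM (median 94.2). The members stood apart from all others, with a difference of -4.42 ± 0.22. COL18A1, the precursor of endostatin, had -4.49 ± 0.28, and COL5A1, a fibrillar collagen chain, -4.25 ± 0.24. FN1, the fibronectin gene, had -4.12 ± 0.17. It stood at 28.9 to 38.5 CPM (median 30.98) in the members of set B against 542 to 756 CPM (median 649) in the others. The 7 short members of the list had a median of -0.26 and the 35 long ones -2.27. Both lay below the medians of all genes tested, 0.23 for short and -0.31 for long genes. The long ones also lay below the longest quintile, at -0.73. The list's median coding length was 3070.5 bases, and it was not compared with genes of equal length.

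Chromatin and RNA polymerase II genes had the lowest median of the gene lists other than cell type markers. All 35 had coding sequences above the median length. Of these 34 were lower, 31 in all 7 libraries at any size (12.3% of all genes were). The median was -2.15, against -0.31 for all genes above the median length and -0.73 in the longest quintile. The list had a median coding length of 6996 bases, while the longest quintile starts at 2562. Genes of equal length were not compared. CREBBP, a histone acetyltransferase gene, stood at 1.91 to 8.52 CPM (median 7.39) in the members of set B and 73.9 to 112 CPM (median 79.2) in the others, a difference of -3.48 ± 0.21. The members' range ended far below that of the others. SRRM2, which encodes a large scaffold protein of nuclear speckles, had -3.29 ± 0.20. ANKRD11, a chromatin regulator gene, had -4.30 ± 0.24, and TNRC18 -4.15 ± 0.40.

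In several lists that mix long and short genes the 2 kinds diverged, while in heat shock and chaperonin genes (0.14 short, 0.11 long) and TGF-beta and BMP components (0.10 and 0.04) their medians were close. Of the actin cytoskeleton and adhesion genes, the 21 long members had a median of -1.08 and the 28 short ones 0.22. MYH9, the heavy chain of non-muscle myosin, had -3.68 ± 0.24, and it stood at 18.3 to 64.03 CPM (median 50.3) in the members of set B against 696 to 824 CPM (median 804) in the others. TLN1, the integrin adaptor talin, had -3.14 ± 0.23, and MYH10 -3.45 ± 0.35. The summed level of the list was nonetheless much alike, at 36554 to 49084 CPM in the members and 37691 to 49889 CPM in the others.

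Endothelial identity genes were lower in 39 of 52 cases (6140 of all 12055 genes were), with a median of -0.49. In all 7 libraries 23 of them were lower at any size (12.3% of all genes were). The 31 long members had a median of -0.89 and the 21 short ones -0.03. STAB1, a scavenger receptor gene of 7710 coding bases, had -3.32 ± 0.31. ENG, which encodes the TGF-beta co-receptor endoglin, had -1.96 ± 0.16, and EPAS1, the hypoxia-inducible factor 2 alpha gene, -1.52 ± 0.14. The endothelial markers PECAM1 and CDH5, junction protein genes, were present in every library. PECAM1 stood at 165 to 269 CPM in the members and 313 to 563 CPM in the others. CDH5 stood at 107 to 166 and 126 to 403 CPM. VWF, the von Willebrand factor gene, was near the floor in all libraries, at up to 6.72 CPM.

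The same divergence appeared in 3 further lists. YAP and TEAD targets had medians of -1.13 in 12 long and -0.10 in 8 short members, with PTPN14, a phosphatase that restrains YAP, at -2.16 ± 0.13. Antigen presentation genes of HLA class I had -1.09 and 0.24. Ribosome biogenesis genes, which build the particles that ribosomal proteins join, were lower in 26 of 35 cases with a median of -0.62. Of all 12055 genes tested 6140 were lower. POLR1A, the largest subunit of RNA polymerase I, had -2.63 ± 0.32, and NOP14, a factor of small subunit assembly, -2.55 ± 0.21. The 10 short members of this list had a median of 0.14 and the 25 long ones -0.77.

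**Figure D3:**
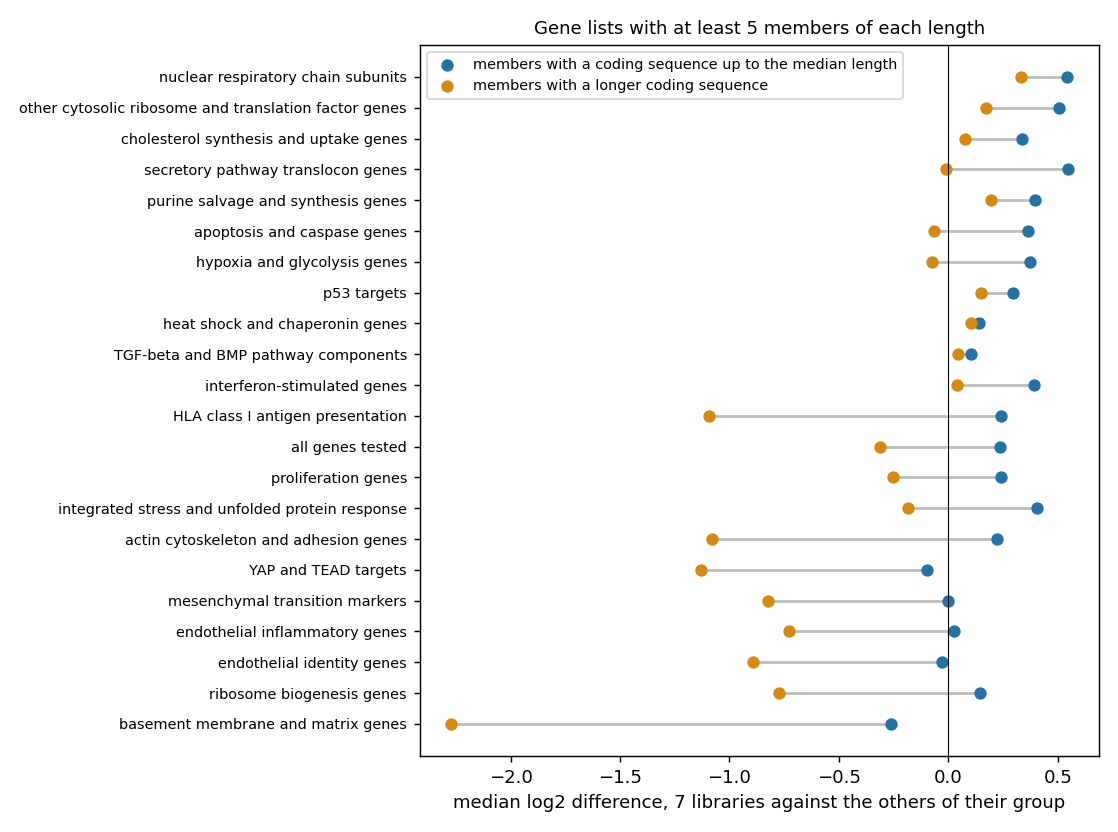
Median log2 difference (x axis) between the 7 libraries and the others of their group, for each gene list with at least 5 members of each length (rows). Blue points are the members with a coding sequence of up to 1365 bases and orange points the longer ones. The orange point lies to the left of the blue point in every list drawn, including the row of all genes tested, by little in heat shock and chaperonin genes and in TGF-beta and BMP components.

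Among the ribosomal protein genes that the rule used, the values are a description only. Of the large subunit, 44 of 47 genes were higher, 20 in all 7 libraries (6.36% of all genes were), with a median of 0.46 and a range from -0.34 to 1.01. Of the small subunit 30 of 31 were higher, 17 in all 7 libraries, with a median of 0.55 and a range from -0.01 to 1.04. Among the largest differences were those of RPS18 (1.04 ± 0.09), RPL39 (1.01 ± 0.09) and RPS14 (0.94 ± 0.08). RPL39 (ENSG00000198918; chromosome X, 119786504 to 119791643), whose coding sequence is shown above, encodes a very small protein of the exit tunnel. RPL39 stood at 2224 to 3214 CPM (median 2722) in the 5 members of set B, against 852 to 1493 CPM (median 1259) in the 10 other libraries. In set A the 2 members were at 1903 and 2540.1 CPM, against 1094 to 1623 CPM (median 1391) in the 10 others. Members and others did not overlap. At the other end RPL22 had -0.34 ± 0.06, RPL6 -0.12 ± 0.06, RPL28 -0.05 ± 0.08 and RPS19 -0.01 ± 0.09. RPL22 stood at 599 to 784 CPM (median 674) in the members of set B and 867 to 978 CPM (median 910.0) in the others, so that it was lower there in each member. Many of these genes have near-identical processed copies in the genome, so how the authors' counting split their reads is uncertain.

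The medians of the 2 ribosomal subunits stood beside 0.37 for all genes of the shortest quintile, and other lists of short genes had similar values. Of all 12055 genes tested 5915 were higher, and 767 (6.36%) were higher in all 7 libraries. The 78 mitochondrial ribosomal protein genes, which the rule did not name, had a median of 0.47, with 75 higher. MRPL11 had 0.88 ± 0.11, and MRPL39, which had the largest difference of the list though not above the others in all 7 libraries, 1.19 ± 0.24. Of 82 nuclear-encoded subunits of the respiratory chain 76 were higher, 33 in all 7 libraries, with a median of 0.54. Proteasome genes had 0.43 with 25 of 31 higher, among them PSMA5 (0.98 ± 0.12). Genes of the secretory translocon had 0.55 in 21 short and -0.01 in 11 long members, with the oligosaccharyltransferase subunit genes OSTC at 0.92 ± 0.07 and RPN2, a longer one, at -1.22 ± 0.11. Other ribosome and translation factor genes had 0.34, including the elongation factor EEF1A1 (0.86 ± 0.12) and the stalk protein RPLP0 (0.96 ± 0.08).

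Among genes above the others in all 7 libraries and at a mean of 10 CPM or more, the 12 with the largest higher values had coding sequences of 309 to 1269 bases, and the largest of their differences was 1.25. NDUFB5 (ENSG00000136521; chromosome 3, 179604690 to 179627647), a subunit of respiratory complex I, is an example. NDUFB5 stood at 107 to 146 CPM (median 112) in the 5 members of set B, against 21.01 to 71.96 CPM (median 46.4) in the 10 other libraries. The 2 members of set A were at 119.7 and 138 CPM and its 10 other libraries at 67.3 to 90.2 CPM (median 78.8). Every member was above every other library of its set, with a difference of 1.17 ± 0.13. C1QBP, a mitochondrial matrix protein gene, had 1.17 ± 0.16, MTLN, a mitochondrial microprotein gene, 1.16 ± 0.19, and CRLS1, the cardiolipin synthase gene, 1.08 ± 0.14. COX7A2L, a factor of respiratory supercomplexes, had 1.06 ± 0.11, and SLC25A5, an adenine nucleotide carrier of the mitochondrial membrane, 1.08 ± 0.11. TMEM218 had 1.25 ± 0.16, C1orf174 1.15 ± 0.15 and HDHD5 1.11 ± 0.20. XBP1, the transcription factor of the unfolded protein response, had 1.09 ± 0.14. The histone genes H2AC13 (1.14 ± 0.20) and H4C3 (1.04 ± 0.14) belong to families of near-identical copies and are uncertain, as is the lowered NPIPB4 (-4.88 ± 0.53), 1 of a multigene family.

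Some genes lay far from the median of genes of their length. The 13 mitochondrially encoded genes tested, 10 of them with a coding sequence of up to 1365 bases, had a median of -0.33, with 8 lower. The other 5 were higher, and the differences ran up to 0.95. Of the 13 genes, 0 were lower in all 7 libraries and 1 was higher in all 7. MT-ATP8, a subunit of ATP synthase with 204 coding bases, had -1.21 ± 0.19. MT-ATP6 had -1.11 ± 0.17 and MT-ND4 -0.97 ± 0.14. MT-ATP8 and MT-ATP6 overlap, so their reads are uncertain. In sum the 13 genes stood at 7171 to 25482 CPM in the members and 10435 to 33333 CPM in the others, ranges that overlapped. MMP2, a matrix metalloproteinase gene of 1980 coding bases, had -4.25 ± 0.31, where the median of its quintile was -0.15. It stood at 0 to 2.87 CPM (median 1.72) in the members of set B against 32.2 to 59.2 CPM (median 48.5) in the others. NR2F2 (ENSG00000185551; chromosome 15, 96325938 to 96340263), the venous identity transcription factor, has 1242 coding bases and had -1.32 ± 0.10. NR2F2 stood at 209.9 to 334 CPM (median 262) in the 5 members of set B, against 519 to 911 CPM (median 689) in the 10 other libraries. In set A the 2 members were at 353 and 369.7 CPM, against 599 to 906 CPM (median 740.0) in the 10 others. No member overlapped the others. The protein disulfide isomerase gene PDIA3 (1515 bases) had -1.31 ± 0.14, while DNAJB9, another endoplasmic reticulum chaperone gene, had 1.14 ± 0.24 and HSP90B1 -1.80 ± 0.13.

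Stress, p53 and metabolic lists had medians nearer to that of all genes (-0.02, with 5915 of 12055 genes higher). The 34 p53 targets had a median of 0.22 with 25 higher, among them the cyclin G gene CCNG1 (0.82 ± 0.12), while the repair gene XPC, with a longer coding sequence, had -1.09 ± 0.14. As a group the 12 long p53 targets were not lower, with a median of 0.15 against 0.30 in the 22 short ones. Over all long genes tested the median was -0.31. Stress and unfolded protein response genes had 0.41 in short and -0.19 in long members. Interferon-stimulated genes had a median of 0.07, with the ubiquitin carrier UBE2L6 at 1.01 ± 0.29 and SAMD9L, of 4752 coding bases, at -1.83 ± 0.27. Their 21 long members had a median of 0.04 and the 16 short ones 0.39. Cholesterol genes had 0.30 (0.08 in long and 0.34 in short members), with the sterol oxidase gene MSMO1 at 0.89 ± 0.08. Hypoxia and glycolysis genes had 0.22 (-0.08 in long and 0.38 in short members) and heat shock and chaperonin genes 0.11. HSPA8, the constitutive HSP70, had 0.78 ± 0.09 and HSP90AA1 -0.83 ± 0.13.

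Markers of other cell types were measured in small numbers. Of 12 epithelial markers 4 were tested, with a summed level of 1065 to 1520.2 CPM in the members and 753 to 1158 CPM in the others. These were mostly keratins of simple epithelia, such as KRT19 (0.68 ± 0.07), KRT18 (0.24 ± 0.06) and KRT8 (0.04 ± 0.13), and EPCAM and CDH1 were not tested here. Of 12 blood cell markers 2 were tested, at 2.05 to 8.97 and 3.38 to 17.1 CPM in sum. Of 10 fibroblast markers 2 were tested, at 42.6 to 88.05 and 54.9 to 184 CPM. Smooth muscle and pericyte markers, 5 of 11, had 498 to 761 and 708 to 1289 CPM, mostly from RGS5 (-0.66 ± 0.10). Neural markers, 3 of 10, had 156 to 341 and 205 to 407 CPM. The 1 hepatocyte marker tested, of 11, reached at most 4.30 CPM. Venous markers, 3 of 6, had 403 to 636 CPM in the members and 874 to 1494 CPM in the others. Arterial markers, 8 of 12, had 178 to 269 and 281 to 355 CPM, with the receptor gene NOTCH1, of 7665 coding bases, at -2.26 ± 0.18. Lymphatic markers, 2 of 6, had 22.2 to 46.3 and 17.7 to 50.9 CPM. The ranges of members and others stood apart for the venous and arterial lists and overlapped for the rest, and the part of other cell types in the results was not tested.

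The targeted genes were also compared. HPRT1 (ENSG00000165704; chromosome X, 134460153 to 134520513), the purine salvage enzyme gene, was higher in all 7 libraries. HPRT1 stood at 47.03 to 91.7 CPM (median 60.9) in the 5 members of set B, against 24.8 to 46.5 CPM (median 37.1) in the 10 other libraries. The 2 members of set A were at 44.2 and 71.7 CPM and its 10 other libraries at 29.3 to 55.1 CPM (median 39.3). Within each group the members lay above the other libraries, while across the groups of set A the ranges overlapped. The difference was 0.82 ± 0.11, and the coding sequence is short (654 bases). SMAD3 had -0.36 ± 0.10 and LDAH 0.12 ± 0.23.

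Sets A and B share no library, and the differences of their members were compared gene by gene. Across 3794 genes with a mean of at least 50 CPM the log2 differences fitted in each set alone had the same sign in 88.1% of genes, with a Pearson correlation across genes of 0.95. Across all 11330 genes tested in both, 80.6% had the same sign and the correlation was 0.77. The differences of set A were smaller, with a slope of 0.65 on those of set B at 50 CPM. Genes are not independent replicates, and both sets' members were selected by the same rule. Library by library, the deviations from the other libraries of the group correlated at 0.74 to 0.93 between members of different groups (19 pairs), including the 10 pairs between sets. Between the other libraries of different groups they ranged from -0.42 to 0.56 (164 pairs), with a median of -0.0029. Each of these other libraries was compared with the remaining ones of its own group, so their deviations tend to cancel within a group. That median therefore follows largely from how the deviations were formed. The deviations of the members do not cancel in this way, so the 164 pairs are no baseline for theirs.

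**Figure D4:**
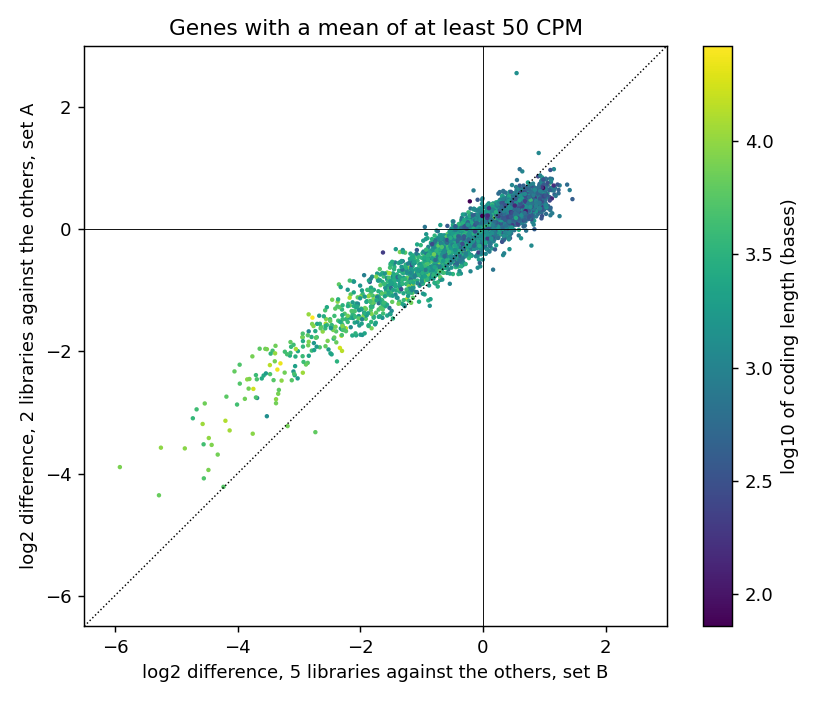
Log2 difference between the members and the other libraries in set B (x axis, 5 members) and in set A (y axis, 2 members), for 3767 genes with a mean of at least 50 CPM and a coding length; colour gives the log10 of coding length in bases and the dotted line marks equality. The lowest genes in both sets are mostly those with long coding sequences.

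Members of set B also detected fewer genes. With every library thinned to 3430481 counts, the 5 members detected 11302 to 12034 genes and the 10 others 12334 to 13053. Without thinning the numbers were 11367 to 12098 and 12491 to 13265. In set A the 2 members detected 12821 and 12831, against 13018 to 13247. Among genes at 10 CPM or more in the other libraries of the group, 16 to 54 had no count in a member of set B, and 0 to 4 in another library of the set. The members of set A had 0 and 1 such genes and its other libraries 0 to 2.

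The members of set B were also less alike than the other libraries of that set. Within a group, 2 members differed at genes of 10 to 20 CPM by a median absolute log2 of 0.61 (2 pairs), against 0.38 in the others (14 pairs). The share of such genes that differed by more than 2-fold was 27.6% and 8.75%. At 100 to 500 CPM the medians were 0.25 and 0.16. In set A no group held 2 members, and its other libraries stood at 0.24 and 0.13 (12 pairs). The members of set B held 3430481 to 5123737 counts and the others of that set 3841246 to 6414050, and the part of depth in this spread was not tested.

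**Figure D5:**
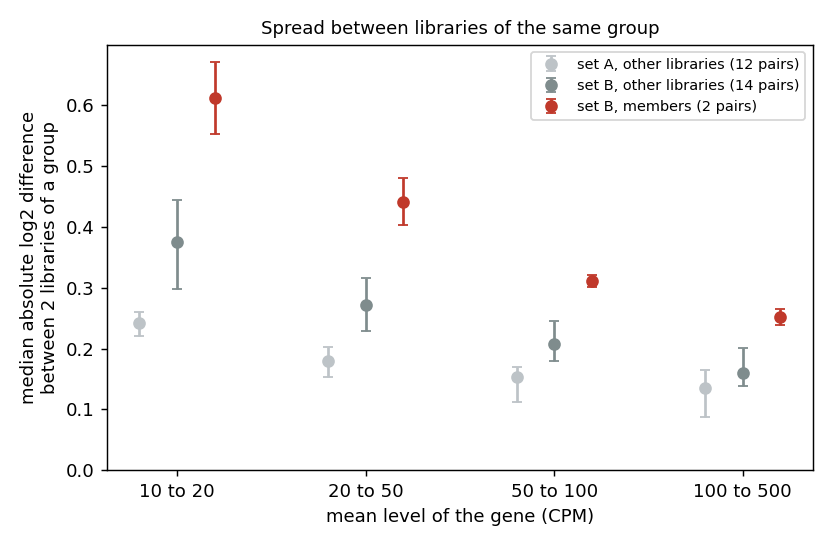
Median absolute log2 difference between 2 libraries of the same group (y axis) at 4 ranges of the gene's mean level in CPM (x axis). Points are the median over pairs of libraries and bars run from the lowest to the highest pair. The 2 pairs of members in set B (red) lie above all pairs of other libraries at each range.

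The total count is the denominator of the share that chose the members, so its difference is given without a test. Averaged within groups, the members' totals differed from those of the other libraries by -0.23 on the log2 scale, and 4 of the 7 lay below every other library of their group. Without LDAH deletion replicate 4 or HPRT-targeted replicate 3 of set B the difference was -0.14. The number at the end of each title, whose meaning the labels do not give, was not used by the rule and was tested within groups. It was higher in the members. Their mean rank within the group, scaled from 0 to 1, exceeded that of the others by 0.48 (two-sided exact permutation over 8064 arrangements, p = 0.00794, adjusted p = 0.0159 over the 2 tests computed), and 4 of 7 had the highest number of their group. Without HPRT-targeted replicate 1 of set B the difference was 0.39, with an exact permutation p of 0.0868. This test was written with the members' titles in view.

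Treatment was not used to choose the members, so the HPRT guide could be compared with the negative control within the 4 members of set B (2 and 2 libraries). In the fit of all 27 libraries, edgeR's two-sided quasi-likelihood test called 681 of 12055 genes (5.65%) at a Benjamini-Hochberg adjusted p under 0.05, 294 of them higher. In the other libraries of set B (2 and 5) it called 0, with 446 genes at an unadjusted p under 0.05. DESeq2, run in the same design, called 1 and limma voom 0 there. The difference of the 2 effects, tested as an interaction, was called for 230 genes (1.91%), 86 of them higher.

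The calls depended on which libraries entered the fit and on the tool. With only the 15 libraries of set B in the fit, edgeR called 30 genes within the members and 4 for the difference, and limma voom on all libraries called 29 and 1. With the 4 members alone in the fit edgeR called 0 of 10899 genes, with 477 at an unadjusted p under 0.05. The fit of all libraries shares a spread per gene over members and others. At 10 to 20 CPM, 2 members of a group in set B differed by a median absolute log2 of 0.61, against 0.38 in the others. The p-values and standard errors within the members, also those of the genes below, may therefore be too small. Leaving out 1 of these 4 members left 1 library of its treatment alone, assumed to vary like the rest. The calls within the members rose without HPRT-targeted replicates 2 or 4 or negative control replicate 6, and fell without negative control replicate 7. Calls for the difference moved in the same directions. They also fell without HPRT-targeted replicates 1 or 3, which left 1 HPRT-targeted library among the others.

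The genes with the smallest p in either test included 3 that were higher with the HPRT guide. GPC1, a heparan sulfate proteoglycan gene of the cell surface, stood at 26.3 and 29.5 CPM in the 2 HPRT-targeted members and at 6.30 and 6.79 CPM in the 2 negative control members. In the other libraries of set B it stood at 69.7 and 66.04 CPM with the HPRT guide and at 54.4, 81.9, 87.2, 78.9 and 66.7 CPM in the negative controls. It was thus lower in all 4 members, and least so in the HPRT-targeted ones, with a log2 fold change of 2.09 ± 0.25 (edgeR adjusted p = 3.6e-05) within the members and -0.12 ± 0.17 in the others. ADCY7, an adenylate cyclase gene, had 2.35 ± 0.34 within the members (edgeR adjusted p = 0.000288). It stood at 24.6 and 39.2 CPM in the 2 HPRT-targeted members and at 5.73 and 6.79 CPM in the 2 negative control members. HJURP, the chaperone gene of centromeric histone CENP-A, stood at 68.5 and 58.5 CPM in the 2 HPRT-targeted members and at 16.4 and 29.9 CPM in the 2 negative control members. It had 1.46 ± 0.26 within the members and -0.63 ± 0.23 in the others, and the difference of the 2 effects had an edgeR adjusted p of 0.00377.

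The other 3 genes were at or near 0 in both HPRT-targeted members. PTPN21, a tyrosine phosphatase gene, stood at 0 and 0 CPM in the 2 HPRT-targeted members and at 4.77 and 7.21 CPM in the 2 negative control members. The mean of the 2 negative control members lay 9.88-fold above the floor of 3 counts per library, 0.607 CPM. That floor covers counting error only, so the value is no firm lower bound of the difference. In the other libraries of set B PTPN21 stood at 12.3 and 12.2 CPM with the HPRT guide. The negative controls there had 9.63, 10.96, 8.75, 9.44 and 15.3 CPM. GSE1, which encodes a chromatin-associated protein, stood at 0 and 0.205 CPM in the 2 HPRT-targeted members and at 3.44 and 6.79 CPM in the 2 negative control members, and PDE4A, a cyclic AMP phosphodiesterase gene, at 0.370 and 0 CPM in the 2 HPRT-targeted members and at 9.35 and 7.001 CPM in the 2 negative control members. Such zeros were more frequent in the members of set B in general, as given above, and their part in these calls was not tested.

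Gene lists were described in the same 2 comparisons. Proliferation genes had a median log2 fold change of 0.16 with the HPRT guide within the members, 30 of 46 higher, and -0.35 in the other libraries of set B, 0 of 46 higher. The p53 targets had 0.14 (24 of 34 higher) and 0.26 (27 of 34 higher). Ribosome biogenesis genes had 0.30 and -0.19, and large ribosomal subunit genes 0.12 and 0.0046. Over all genes the medians were 0 and -0.0054. The differences between the 2 comparisons were not tested for lists.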

How the data were processed

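Messenger RNA 3′ ends were counted in 27 QuantSeq libraries of teloHAEC. The authors deposited integer read counts per gene for 14008 genes, and all 27 count columns were used (0 were not). Among tools and builds, edgeR 3.24.3 and hg38 appear in the submitters' processing notes. Which aligner and which counter made them is not given in the sources used here. Symbols came from current names for 13053 genes and from GENCODE 29 for 861, and 94 genes had none.

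Members, gene lists, tests and the naming rule were all chosen with earlier results of these data known. Counts were fitted with edgeR 4.0.16 (limma 3.58.1, R 4.3.3) with TMM factors and filterByExpr, leaving 12055 genes, with group as block for the 7 against the others. For the HPRT effects a mean per group and membership was fitted, with a two-sided quasi-likelihood test and Benjamini-Hochberg adjustment at 0.05. The SE is the log2 difference over the square root of the F statistic. Log2 CPM used a prior count of 2. Functions were tested on simulated data with the same spread in all libraries. That test does not cover the larger spread among the members of set B. A count of 0 allows up to 0.387 to 0.875 CPM (3 counts), for counting error only, since reads carry no molecular identifiers.

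Lengths are those of the longest coding sequence per gene in the GENCODE 29 basic set (GRCh38), used in place of protein length; these properties and the fit of the 4 members alone were added after seeing the data. The named genes are per direction the 12 with the largest differences among those called in all 7 at 10 CPM or more, the 4 largest and 4 smallest ribosomal protein genes, the 3 largest of each list, the 3 targets, and the 5 with the smallest p of each test. PECAM1, CDH5 and VWF are markers of the cells. Some genes that this rule names are not reported here. A permutation test of total counts was computed but is not used, since the total is part of the selecting share. Alternatives used DESeq2 1.42.0, limma voom, other scalings, filters, thresholds, sets, thinning and left-out libraries.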

Additional observations from a re-analysis of the deposited data

Results flagged for a closer look

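In 42 groups of values (7 measures in 6 groups), 5 values lay far from the rest of their group by Dixon's criterion, which chance meets in about 1 group in 20. They belong to libraries chosen on their counts, and the share and the totals enter that choice directly, so they are given as values only. LDAH deletion replicate 4 had 3.43 M counts (3430481 counts) against 5.62 to 5.93 M in the other libraries of its group, and a ribosomal protein share of 16.5% against 8.83% to 9.96%, the value it was chosen by. SMAD3 deletion replicate 4 had 5.64 M counts against 7.43 to 7.49 M. HPRT1 stood at 71.7 CPM in SMAD3 deletion replicate 4 against 39.5 to 44.1 CPM, and at 44.2 CPM in HPRT-targeted replicate 3 of set A against 29.3 to 31.6 CPM.

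The effect of the HPRT guide in set B differed between the members and the other libraries for 230 genes in edgeR's interaction test, for 488 with DESeq2, 4 with set B alone in the fit and 1 with limma voom. The log2 difference of effects was 2.21 ± 0.30 for GPC1 and 2.09 ± 0.35 for HJURP (edgeR adjusted p = 0.000311 and 0.00377). It was -5.05 ± 0.80 for GSE1, -4.98 ± 0.83 for PDE4A and -8.30 ± 1.11 for PTPN21. The values of PTPN21, GSE1 and PDE4A rest on levels at or near 0 in both HPRT-targeted members and depend on the prior count. The p-values and standard errors use a spread shared over all libraries, while the members of set B varied more, so they may be too small.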

How the results depend on the processing

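The number of genes higher in all 7 libraries (28) was 46 with DESeq2's size factors, 45 with DESeq2, 16 with library totals in place of TMM factors, 102 with libraries over 15%, 1 with libraries over 13%, 66 in set A alone and 151 in set B alone. With 1 library left out, which can loosen the rule for both directions, it was 21 to 72. The number of genes lower in all 7 libraries (1069) was 614 with libraries over 15% and 79 over 13%, where the rule takes in fewer and more libraries, and 1047 to 1253 with 1 library left out. Under the other alternatives it was 943 to 1298. The gap between the longest and the shortest quintile of coding length was -1.10, -0.80 in set A alone, and -1.22 to -1.06 with 1 library left out. Calls for HPRT within the members (681) numbered 359 at a mean CPM of at least 10, 1078 with DESeq2, 29 with limma voom, 30 with set B alone, 0 with the 4 members alone (chosen after seeing the data) and 468 to 1225 with 1 library left out. Those for the difference (230) numbered 80, 488, 1 and 4 under the first 4 of these, and 83 to 778. The difference of total counts (-0.23) was -0.25 in set B alone and -0.32 to -0.14 with 1 library left out. That of the title number (0.48) was 0.39 to 0.60. Of the named genes' differences 50 of 1819 values moved beyond the spread of the 7 libraries and 0 of a called gene changed sign. Of the lists' medians 20 of 528 moved. No paired analysis was possible because the replicate numbers follow accession order. At these depths a count of 0 allows up to 0.387 to 0.875 CPM. Causes were not tested.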

Other observations

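Small nucleolar RNA host genes and nuclear long noncoding RNAs, mostly without a coding sequence in the annotation, lay on both sides. Of 14 small nucleolar RNA host genes 8 were higher in the 7 libraries and 6 lower, with a median of 0.16. SNHG29 had 0.82 ± 0.08, ZFAS1 0.63 ± 0.13 and SNHG12 -0.93 ± 0.25. Of 13 nuclear long noncoding RNAs 10 were lower, with a median of -0.16, among them FTX (-0.50 ± 0.18) and MIR22HG (-0.48 ± 0.20).

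Signalling lists also mixed both directions, beside 5915 higher and 6140 lower of all 12055 genes tested. TGF-beta and BMP pathway components, which include SMAD3, had a median of 0.10 with 19 of 34 higher. LTBP1, which encodes a large matrix protein that stores latent TGF-beta, had -1.18 ± 0.10, and SKI, a corepressor of SMAD proteins, -1.30 ± 0.11. Endothelial inflammatory genes had a median of -0.41 with 11 of 17 lower. ICAM1, a leukocyte adhesion receptor gene, had -1.47 ± 0.40, the chemokine gene CXCL1 -1.06 ± 0.21 and the chemokine gene CCL2 0.82 ± 0.23, none of them on one side of the others in all 7 libraries. Apoptosis genes had a median of 0.28 with 18 of 25 higher, among them BAD (0.67 ± 0.14), a death promoter of the BCL2 family, while the caspase inhibitor gene XIAP had -1.10 ± 0.10. Purine salvage and synthesis genes had 0.29 with 13 of 18 higher, including ADSL (0.63 ± 0.09) and PRPS2 (0.71 ± 0.13) beside HPRT1. Mesenchymal transition markers had -0.36 with 18 of 23 lower.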
